A study of Rattus norvegicus with 9 samples.

Results

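The 9 genes described here carry prostacyclin, prostaglandin E2 and adenosine signals through cyclic AMP in blood cells: the receptors Ptgir, Ptger2, Ptger4 and Adora2a, the phosphodiesterases Pde3b, Pde4a, Pde4b and Pde4d, and the transcription factor Crem. They were found by symbol among the 22077 intact genes of 1 deposited expression table, in which each symbol matched a single gene, and all 9 were kept by the filter on low counts. RNA came from PBMC, that is peripheral blood mononuclear cells, chiefly lymphocytes and monocytes, of wild-type Sprague-Dawley rats, in 3 groups of 3 libraries: normoxia at day 0, Sugen-hypoxia (SuHx) at day 28 and SuHx at day 56. SuHx, a rat model of pulmonary hypertension, combines a VEGF receptor inhibitor with a period of low oxygen. Total RNA was sequenced on Illumina libraries. The day 0 rats were the only controls, so day, age and treatment cannot be told apart, and the labels give neither age nor whether replicates were separate animals, so a p-value here reflects library-to-library spread that may be only technical.

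Ptgir encodes the prostacyclin receptor (IP), Ptger2 and Ptger4 the prostaglandin E2 receptors EP2 and EP4, and Adora2a a receptor for adenosine. All 4 receptors can couple to the stimulatory G protein, which activates adenylyl cyclases; the cyclic AMP formed activates protein kinase A, which phosphorylates CREB-family factors bound to the cyclic AMP response element (CRE) of target genes. Phosphodiesterases break cyclic AMP down: the type 4 enzymes are specific for it and are the main ones in leukocytes, and Pde3b also binds cyclic GMP. Crem encodes activators and repressors of CRE-driven transcription, among them ICER, a short repressor made from an internal promoter that cyclic AMP itself induces. In blood cells these signals are known for restraining T cell and monocyte activation, and prostacyclin analogues are used as drugs in pulmonary hypertension.

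Exon reads per library ranged from 22148400 to 39947430, and levels are given as CPM, exon reads scaled to a common library total with TMM factors. A difference was called when the adjusted p of edgeR's quasi-likelihood test over 12447 genes was at or under 0.05. The label PBMC was checked against T cell, B cell and monocyte markers: all those in the table were detected in each of the 3 groups. Whole blood holds these cells too, so the check cannot tell PBMC from whole blood. Libraries also differed beyond their groups: globin genes took 43.1% to 56.4% of exon reads at normoxia, 1.43% to 29.0% at day 28 and 40.6% to 44.6% at day 56. The share of gene reads lying in introns was 5.37% to 14.6% at normoxia, 14.2% to 24.9% at day 28 and 11.9% to 16.9% at day 56. Normoxia replicate 1, with the intron share of 14.6%, stood apart from the other normoxia libraries, and without it the number of genes called at day 28 was 5732, against 16 with it.

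Promoter sequence shows where the genes themselves hold the element through which cyclic AMP acts. RefSeq promoter windows (build GRCr8; 300 bases on the gene's strand, 250 before the annotated start and 50 after it) were matched for 7 of the 9 genes, 17 windows in all; Adora2a and Pde3b had no window. The palindromic full CRE, TGACGTCA, lay in 2 of the 17 windows, both of Crem, and in 1.83% of all 33469 rat windows. Crem's window at chr17:58985240-58985539 holds it 2 times; 0.0418% of all windows hold it 2 or more times. The short CRE motif TGACG, searched on both strands (CGTCA on the other), is part of the full element and so overlaps it; it lay in 7 of the 17 windows, those of Crem, Pde4a and Pde4d, against 21.2% of all windows. The windows of Ptger4, Ptger2, Ptgir and Pde4b held neither. A match is a stretch of letters, not a measured binding site. The sequences below are the Crem windows with a full CRE, the Pde4d window with 2 short motifs, and those of the receptors Ptger4 and Ptger2, whose levels follow that of Pde4d across libraries in the results that follow; capitals mark the full CRE in Crem and the short motif in Pde4d.
Crem, chr17:58984547-58984846, + strand: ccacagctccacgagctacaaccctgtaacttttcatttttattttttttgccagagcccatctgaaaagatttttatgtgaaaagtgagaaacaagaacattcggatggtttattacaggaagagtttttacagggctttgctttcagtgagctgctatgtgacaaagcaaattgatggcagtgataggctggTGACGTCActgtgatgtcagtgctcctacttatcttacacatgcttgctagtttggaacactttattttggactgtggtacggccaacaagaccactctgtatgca
Crem, chr17:58985240-58985539, + strand: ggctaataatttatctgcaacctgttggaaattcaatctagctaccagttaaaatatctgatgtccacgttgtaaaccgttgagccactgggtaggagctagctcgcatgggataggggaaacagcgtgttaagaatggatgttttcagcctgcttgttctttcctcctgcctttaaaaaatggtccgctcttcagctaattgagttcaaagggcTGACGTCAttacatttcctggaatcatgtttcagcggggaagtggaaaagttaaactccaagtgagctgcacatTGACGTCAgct
Pde4d, chr2:42592499-42592798, + strand: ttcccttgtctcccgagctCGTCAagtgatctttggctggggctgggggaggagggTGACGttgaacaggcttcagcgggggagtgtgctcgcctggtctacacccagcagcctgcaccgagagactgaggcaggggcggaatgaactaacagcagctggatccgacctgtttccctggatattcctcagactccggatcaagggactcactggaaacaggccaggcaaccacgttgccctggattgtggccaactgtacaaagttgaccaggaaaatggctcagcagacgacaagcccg
Ptger4, chr2:56073473-56073772, - strand: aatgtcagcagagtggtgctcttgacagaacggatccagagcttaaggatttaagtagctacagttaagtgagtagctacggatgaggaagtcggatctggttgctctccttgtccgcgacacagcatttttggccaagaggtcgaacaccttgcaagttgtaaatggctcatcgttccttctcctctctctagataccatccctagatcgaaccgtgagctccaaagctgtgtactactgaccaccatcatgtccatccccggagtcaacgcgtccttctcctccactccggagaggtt
Ptger2, chr15:20696796-20697095, + strand: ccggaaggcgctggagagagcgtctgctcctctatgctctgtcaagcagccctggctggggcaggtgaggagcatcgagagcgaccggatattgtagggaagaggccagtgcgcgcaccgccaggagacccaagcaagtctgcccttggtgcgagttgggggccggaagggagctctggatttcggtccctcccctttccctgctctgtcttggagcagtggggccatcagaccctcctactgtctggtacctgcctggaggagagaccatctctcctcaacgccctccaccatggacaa

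Of the 4 receptors among the 9 genes, Ptger4 and Ptger2 rose at day 56, and Ptgir and Adora2a did not pass the test. Ptger4 (ENSRNOG00000013240, rn6 chromosome 2, 54952820 to 54963448) had 11.5, 10.5 and 9.02 CPM at normoxia, 27.8, 15.1 and 32.5 CPM at day 28, and 49.0, 39.6 and 57.3 CPM at day 56. The 3 groups do not overlap, and every day 56 library lies above every day 28 library. Ptger4 was 4.71-fold higher at day 56 than at normoxia (log2 fold change 2.24, SE 0.284; edgeR adjusted p = 0.00601). Among the 12447 genes it ranked 34 by p and 115 by log2 fold change. It was called in each of the 19 alternative fits, with an adjusted p of at most 0.0344. At day 28 its log2 fold change over normoxia was 1.28 (SE 0.277; edgeR adjusted p = 0.0681), and at day 56 over day 28 it was 0.95 (SE 0.271; edgeR adjusted p = 0.116), so neither step passed edgeR's test on its own.

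Ptger2 (ENSRNOG00000050968, rn6 chromosome 15, 19338174 to 19350210) had 8.0, 6.77 and 8.89 CPM at normoxia, 10.9, 9.65 and 11.9 CPM at day 28, and 15.5, 13.7 and 15.3 CPM at day 56. It too shows 3 groups that do not overlap, in steps smaller than those of Ptger4. The day 56 level was 1.89-fold that of normoxia (log2 fold change 0.92, SE 0.174; edgeR adjusted p = 0.0209). The call held in 13 of 19 alternative fits. It was lost when normoxia replicate 2 (0.0878) or 3 (0.0627) or day 56 replicate 1 (0.0594), 2 (0.0721) or 3 (0.0967) was left out, and when the model included each library's intron share (0.0638), each value being edgeR's adjusted p. Its log2 fold change was 0.815 to 1.01 with a library left out and 0.96 with the intron share. Over all genes 886 were called with every library. The fits that lost the call of Ptger2 called 93, 119, 304, 85, 109 and 138 genes, in the order above. Day 28 over normoxia gave a log2 fold change of 0.45 (SE 0.173; edgeR adjusted p = 0.134), and day 56 over day 28 gave 0.46 (SE 0.171; edgeR adjusted p = 0.188).

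Ptgir (ENSRNOG00000016756, rn6 chromosome 1, 78833156 to 78837623) followed another course: 22.5, 13.3 and 17.0 CPM at normoxia, 21.7, 33.4 and 18.8 CPM at day 28, and 10.4, 13.0 and 18.0 CPM at day 56. Its day 56 libraries overlap those of normoxia and lie below every day 28 library. The log2 fold change was -0.35 at day 56 over normoxia (SE 0.294; edgeR adjusted p = 0.441) and -0.83 at day 56 over day 28 (SE 0.294; edgeR adjusted p = 0.172). Neither passed the test.

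Adora2a (ENSRNOG00000001302, rn6 chromosome 20, 14265251 to 14282873) had 22, 14.9 and 20.7 CPM at normoxia, 29.7, 43.5 and 28.7 CPM at day 28, and 24.7, 27.3 and 36.2 CPM at day 56. Both SuHx groups lie wholly above normoxia. The log2 fold changes were 0.82 at day 28 over normoxia (SE 0.236; edgeR adjusted p = 0.0937) and 0.62 at day 56 over normoxia (SE 0.235; edgeR adjusted p = 0.117), so edgeR made no call with all libraries. Without normoxia replicate 1 both passed (edgeR adjusted p = 0.0161 at day 28 and 0.0444 at day 56), in fits that called 45.2% and 43% of all genes. With all libraries DESeq2 called Adora2a at day 28 over normoxia (DESeq2 adjusted p = 0.0198), where it called 13% of all genes. Day 28 replicate 2 held the highest level of both Adora2a and Ptgir, and also the highest summed monocyte markers, 10377 CPM, against 3201 and 4372 CPM in the other day 28 libraries; the part of this in either gene was not tested.

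**Figure D1:**
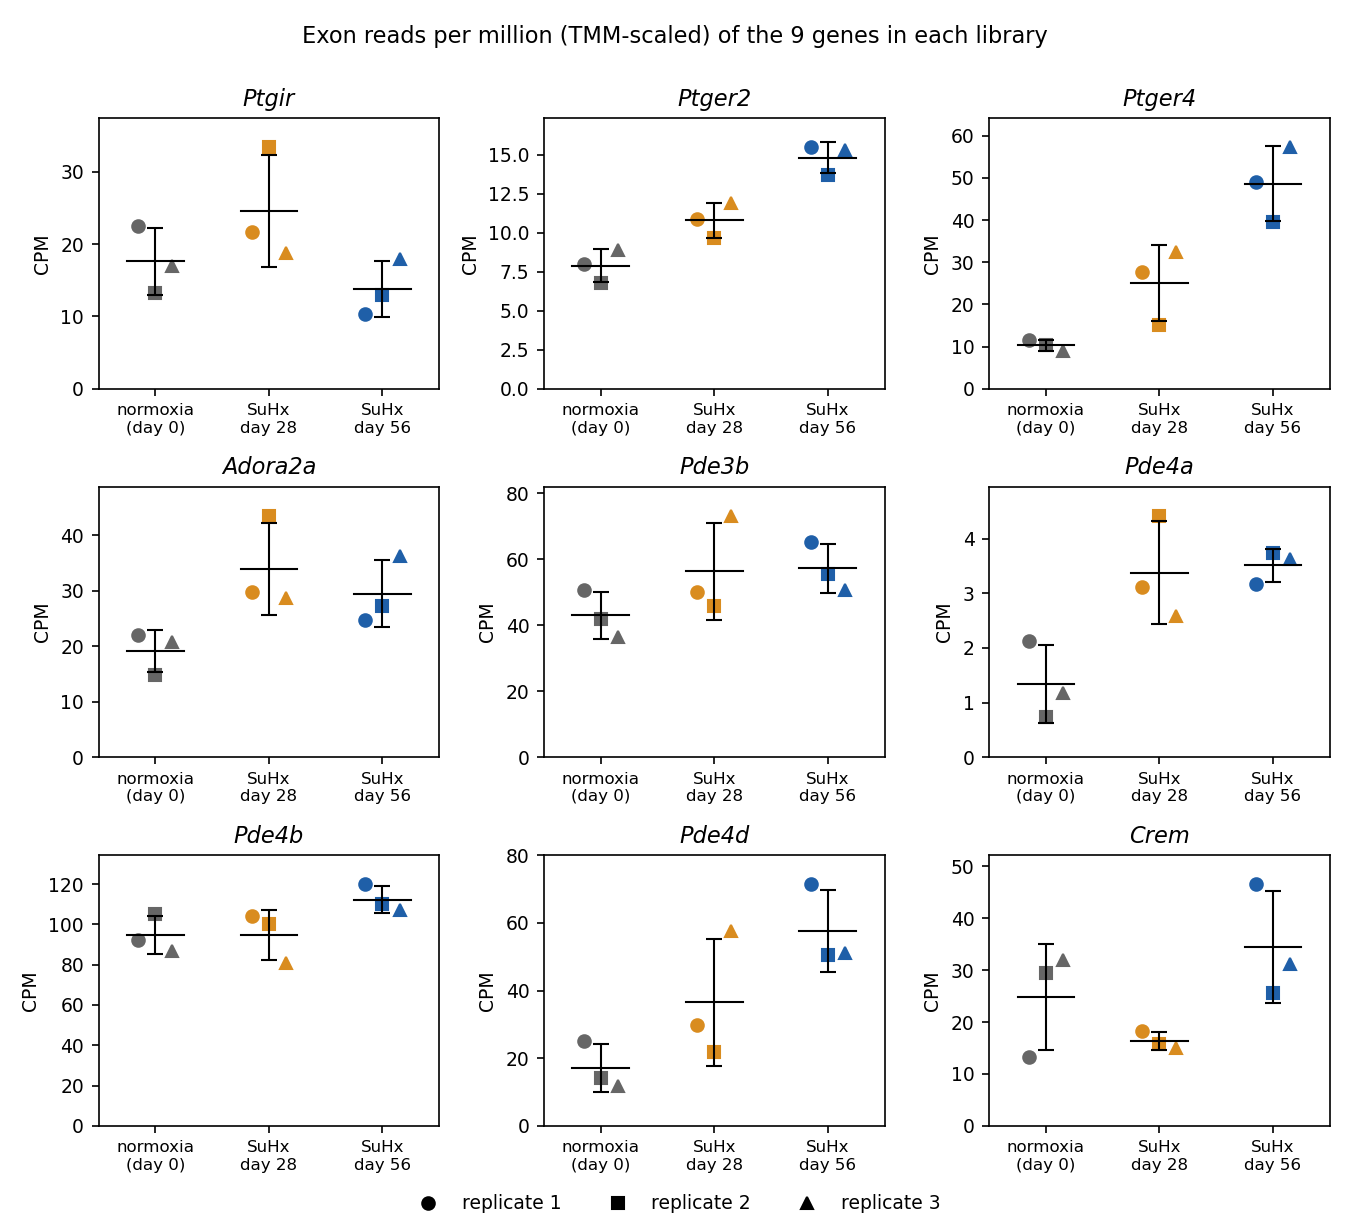
Level of each of the 9 genes in every library, as TMM-scaled CPM on the vertical axis, by group; symbols are replicates, and the line and bars are the group mean and SD (n = 3). Ptger4 and Ptger2 show 3 groups without overlap, lowest at normoxia and highest at day 56, Ptgir is highest in day 28 replicate 2 at 33.4 CPM, and Pde4b stays between 80.7 and 120 CPM.

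Ptger4 exceeded Ptgir by most at day 56 when both were compared within a library. These ratios use the deposited RPKM, which is scaled by exon length and so lets genes be compared. Ptger4 over Ptgir was 1.19, 1.84 and 1.24 at normoxia, 3.00, 1.06 and 4.05 at day 28, and 11, 7.11 and 7.44 at day 56. Every day 56 library lies above every other library, while day 28 replicate 2 lies below all 3 normoxia libraries. Ptger2 over Ptgir was 0.624, 0.896 and 0.919 at normoxia, 0.879, 0.507 and 1.11 at day 28, and 2.61, 1.84 and 1.5 at day 56. Of the summed RPKM of the 4 receptors, Ptger4 made up 29.6% ± 4.67 at normoxia, 39.1% ± 13.2 at day 28 and 58.4% ± 3.08 at day 56, and Ptgir 21.2% ± 2.60, 16.6% ± 5.64 and 7.08% ± 1.28 in the same order (SD, n = 3 each). In mean RPKM the receptor order at normoxia was Adora2a (4.97), Ptger4 (4.52), Ptgir (3.35) and Ptger2 (2.55). At day 56 it was Ptger4 (24.1), Adora2a (8.64), Ptger2 (5.54) and Ptgir (2.93). At normoxia the libraries of neighbours in this order overlap, although within each normoxia library Ptger4 exceeded Ptgir and Ptgir exceeded Ptger2. At day 56 the libraries of Ptger4, Adora2a, Ptger2 and Ptgir are all apart. No test was run on the ratios or the order, since the genes were chosen with earlier results of these data known. RPKM levels of different groups are not on the same footing: over all tested genes the median log2 ratio of group-mean RPKM was 0.72 at day 28 over normoxia, 0.16 at day 56 over normoxia and -0.55 at day 56 over day 28, whereas ratios within a library are free of this shift.

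**Figure D2:**
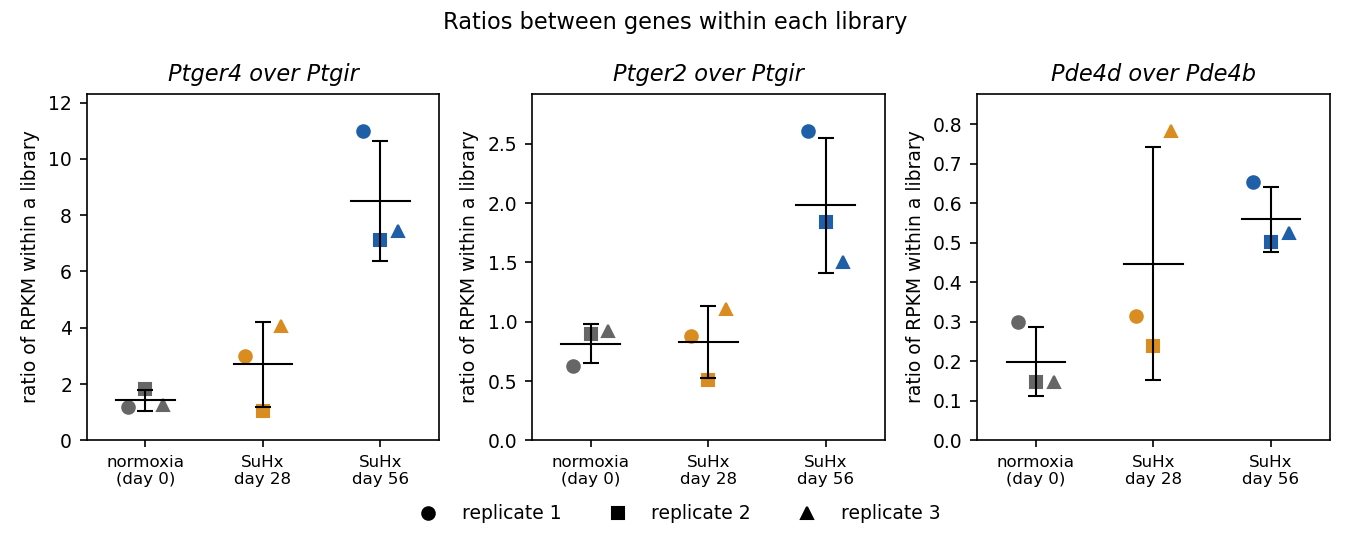
Ratio of RPKM between pairs of these genes within each library, by group; symbols are replicates, and the line and bars are the group mean and SD (n = 3). Ptger4 over Ptgir is 7.11 to 11 at day 56, against 1.19 to 1.84 at normoxia, and the day 28 libraries are spread from 1.06 to 4.05.

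Among the phosphodiesterases, Pde4d rose at day 56, and Pde4b, the most abundant of the 4, was not called. Pde4d (ENSRNOG00000042536, rn6 chromosome 2, 40554145 to 41464264, a span of 910 kb) had 25.2, 14.3 and 11.7 CPM at normoxia, 29.9, 21.9 and 57.7 CPM at day 28, and 71.5, 50.4 and 51.0 CPM at day 56. Day 56 lies wholly above normoxia, whereas day 28 overlaps both other groups. Pde4d was 3.37-fold higher at day 56 than at normoxia (log2 fold change 1.75, SE 0.393; edgeR adjusted p = 0.0343). The call held in 12 of 19 alternative fits. It was lost when the model included each library's intron share (0.107) and in 6 of the 9 fits that each left out a library: normoxia replicates 2 (0.14) and 3 (0.132), day 28 replicate 1 (0.056), and day 56 replicates 1 (0.0923), 2 (0.0943) and 3 (0.102), each value being edgeR's adjusted p. In these 6 fits its log2 fold change ranged from 1.54 to 1.84. Over all genes they called 93, 119, 404, 304, 85 and 109, in the order above. The fit with the intron share called 138, against 886 in the main fit with every library. For Pde4d itself, the log2 fold change was 1.09 at day 28 over normoxia (SE 0.387; edgeR adjusted p = 0.123), and at day 56 over day 28 it was 0.66 (SE 0.381; edgeR adjusted p = 0.406).

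Pde4b (ENSRNOG00000005905, rn6 chromosome 5, 121952976 to 122136814) had 92.3, 105 and 86.9 CPM at normoxia, 104, 100 and 80.7 CPM at day 28, and 120, 110 and 107 CPM at day 56. The day 56 libraries lie just above all others. The log2 fold change was 0.24 at day 56 over normoxia (SE 0.159; edgeR adjusted p = 0.322) and -0.00121 at day 28 over normoxia (SE 0.159; edgeR adjusted p = 0.996). The ratio of Pde4d to Pde4b in RPKM was 0.300, 0.149 and 0.147 at normoxia, 0.316, 0.240 and 0.784 at day 28, and 0.655, 0.503 and 0.524 at day 56. Pde4b made up 64.5% ± 6.18 of the summed RPKM of the 4 enzymes at normoxia, 53.0% ± 11.5 at day 28 and 50.5% ± 2.45 at day 56, and Pde4d 12.5% ± 4.12, 21.4% ± 8.73 and 28.2% ± 2.69 in the same order (SD, n = 3 each).

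Pde4a (ENSRNOG00000020828, rn6 chromosome 8, 22189599 to 22233748) was the least abundant of the 9 genes, with 51, 20 and 18 exon reads at normoxia, 117, 174 and 81 at day 28, and 85, 89 and 108 at day 56. As CPM these were 2.12, 0.736 and 1.17 at normoxia, 3.11, 4.42 and 2.59 at day 28, and 3.17, 3.74 and 3.62 at day 56. Both SuHx groups lie above normoxia without overlap. The log2 fold changes over normoxia were 1.33 at day 28 (SE 0.385; edgeR adjusted p = 0.0949) and 1.38 at day 56 (SE 0.387; edgeR adjusted p = 0.0587), and neither was called by edgeR. DESeq2 called both (DESeq2 adjusted p = 0.0148 and 0.00761), where it called 13% and 18.4% of all genes. Without normoxia replicate 1, its highest normoxia library, Pde4a was called at day 28 (edgeR adjusted p = 0.00302) and at day 56 (edgeR adjusted p = 0.00253), in fits that called 45.2% and 43% of all genes.

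Pde3b (ENSRNOG00000011417, rn6 chromosome 1, 183892840 to 184078071) had 50.6, 42.0 and 36.5 CPM at normoxia, 50, 45.8 and 73.2 CPM at day 28, and 65.2, 55.6 and 50.8 CPM at day 56. Day 56 replicate 3 lies barely above normoxia replicate 1, so these groups only just part. The log2 fold change was 0.41 at day 56 over normoxia (SE 0.214; edgeR adjusted p = 0.217) and 0.39 at day 28 over normoxia (SE 0.213; edgeR adjusted p = 0.244). Day 28 replicate 3, with the highest Pde3b and the highest day 28 level of Pde4d, also had the highest globin share of its group (29.0%) and the highest summed T cell markers (1867 CPM, against 1192 and 1568 CPM); their part in these levels was not tested.

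Crem (ENSRNOG00000014900, rn6 chromosome 17, 57031765 to 57090888) had 13.2, 29.5 and 32.0 CPM at normoxia, 18.3, 15.8 and 15 CPM at day 28, and 46.6, 25.6 and 31.2 CPM at day 56. The 3 day 28 libraries lie close together and below every day 56 library; normoxia overlaps both. At day 28 over normoxia its log2 fold change was -0.60 (SE 0.329; edgeR adjusted p = 0.241). Between the SuHx days, day 56 over day 28, it was 1.07 (SE 0.330; edgeR adjusted p = 0.133). Without normoxia replicate 1 the fall at day 28 (-0.88; edgeR adjusted p = 0.0161) and the difference between the SuHx days (1.06; edgeR adjusted p = 0.0299) passed the test (45.2% and 7.89% of all genes were called in those fits). The table counts all transcripts of a gene together, so ICER and the longer forms cannot be told apart.

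Counted together, 3 of the 9 genes were called at day 56 over normoxia, all higher, where 7.12% of all genes were called and 3.42% were called higher. The groups did not overlap for 7 of the 9, all higher, against 15.6% of all genes, and 5 had an unadjusted p under 0.05 (30.9%). DESeq2 called 4, adding Pde4a (18.4%). The median log2 fold change was 0.62 for the 9 and -0.04 for all genes. At day 28 over normoxia none was called by edgeR (0.129% of all genes were), 5 had an unadjusted p under 0.05 (28.8% of all genes), and DESeq2 called 4, Adora2a, Pde4a, Pde4d and Ptger4, where it called 13% of all genes. Without the filter on low counts edgeR called 1, Ptger4 (0.89% of all genes). The groups did not overlap for 4, all higher (11.4% of all genes), and the median log2 fold change was 0.49, against -0.01 for all genes. Day 56 over day 28 gave no edgeR call (0.546% of all genes), 4 had an unadjusted p under 0.05 (18.5%), and DESeq2 called 2, Crem and Ptger4 (8.13%). A fit of the compared groups alone called 1, Crem (4.8%). There 4 genes were higher without overlap (17.8% of all genes), and 1, Ptgir, was lower (17.4%). Without normoxia replicate 1 edgeR called 6 of the 9 at day 28 over normoxia (Adora2a, Pde4a, Pde4d, Ptger2 and Ptger4 higher, Crem lower), where it called 45.2% of all genes, and 5 at day 56 over normoxia (43% of all genes). The comparisons share libraries: normoxia serves both SuHx days, and each SuHx group enters 2 comparisons. In bulk samples fewer cells of a type and less RNA per cell cannot be told apart, here and in every result above.

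**Figure D3:**
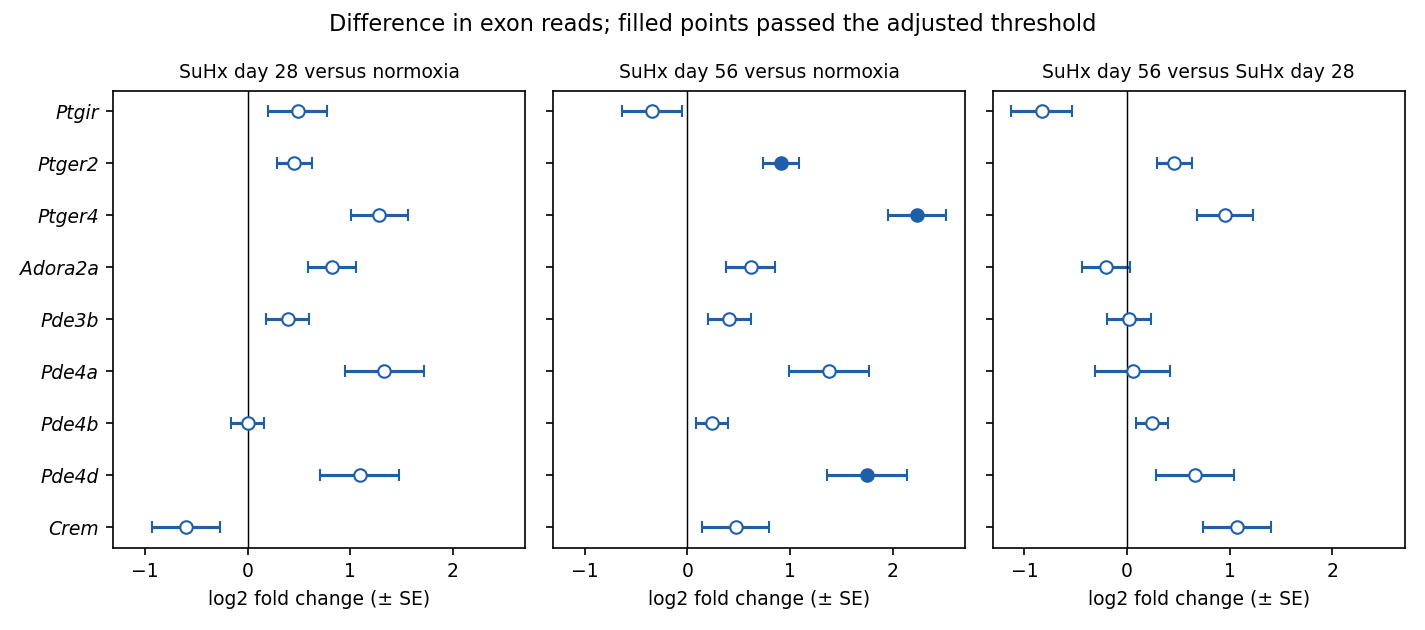
Log2 fold change in exon reads with its SE for the 9 genes in the 3 comparisons; filled points passed edgeR's adjusted threshold of 0.05. Ptger4, Pde4d and Ptger2 are filled at day 56 over normoxia, and Ptgir and Crem lie on opposite sides of 0 at day 56 over day 28, at -0.83 and 1.07.

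**Figure D4:**
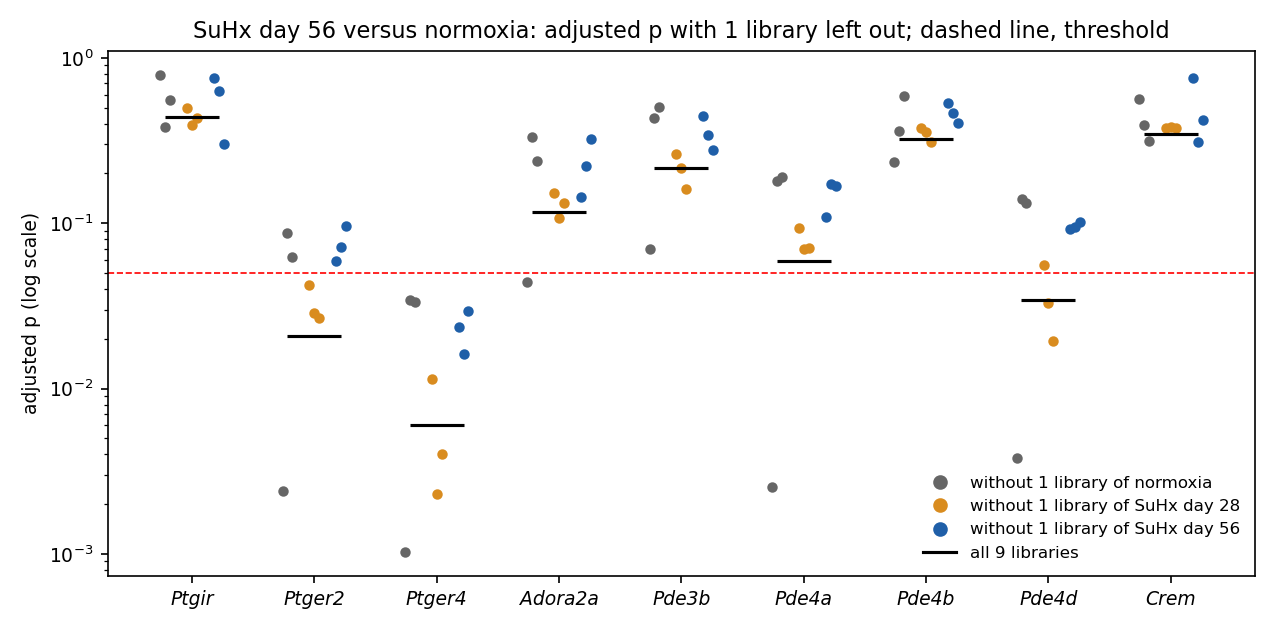
Adjusted p (log scale) of each gene at day 56 over normoxia with all 9 libraries (black bar) and with 1 library left out (points, coloured by the group it came from); the dashed line is the threshold of 0.05. All 9 points of Ptger4 lie under the line, 4 of Ptger2 and 3 of Pde4d do, and the lowest point of most genes is the fit without normoxia replicate 1.

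Reads within introns come largely from unspliced RNA and gave a second count of the same genes in the same libraries. A fit on intron reads alone, chosen after seeing the data, called 15.6% of 11713 genes at day 56 over normoxia, 8.16% higher. Of the 9 genes it called 4, all higher. Intron reads are given here and below as raw sums, not scaled for library depth, whereas the fold changes come from the scaled fit. Pde4d had 7116 intron reads over the 3 day 56 libraries and 1098 over the 3 normoxia libraries (log2 fold change 1.77, SE 0.204; edgeR adjusted p = 0.00236). Ptger4 had 1400 and 178 (2.07, SE 0.257; edgeR adjusted p = 0.00331), Ptger2 had 1291 and 261 (1.39, SE 0.188; edgeR adjusted p = 0.0036), and Pde4a had 148 and 34 (1.34, SE 0.409; edgeR adjusted p = 0.0493), day 56 given first. The calls of Pde4d, Ptger4 and Ptger2 held in all 9 fits that left out a library (edgeR adjusted p at most 0.0202), and that of Pde4a in 1, without normoxia replicate 1. In exons the calls of Ptger2 and Pde4d held in 4 and 3 of the 9 such fits. With all libraries the exon fit called 7.12% of all genes, fewer than the intron fit. The share of all genes called in the intron fits with a library left out is not given here.

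At day 28 over normoxia the intron fit called 1.59% of all genes and, of the 9, Ptger4, with 1398 intron reads at day 28 and 178 at normoxia (log2 fold change 1.65, SE 0.255; edgeR adjusted p = 0.0222). This call held in 5 of 9 fits with a library left out and was lost without normoxia replicate 2 or 3, day 28 replicate 1 or day 56 replicate 1 (highest edgeR adjusted p = 0.108). For day 56 over day 28 the intron fit called 0.922% of all genes and, of the 9, Pde4d, 2.06-fold higher (log2 fold change 1.04, SE 0.198; edgeR adjusted p = 0.045), a call that held in 2 of 9 such fits. Crem, not called in introns at day 56 over normoxia (0.94, SE 0.387; edgeR adjusted p = 0.12), had 47.8%, 52.1% and 44.3% of its gene reads in introns at day 56, against 31.8%, 29.2% and 23.6% at normoxia. Pde4b had a log2 fold change of -0.24 in introns at day 56 over normoxia (SE 0.174; edgeR adjusted p = 0.369). The intron share of whole libraries averaged 8.86% ± 5.02 at normoxia, 20.2% ± 5.45 at day 28 and 14.3% ± 2.48 at day 56 (SD, n = 3 each), and its part in these intron values beyond the scaling of the fit was not tested. Intron reads can also come from exons missing from the annotation, which was not tested. All exon reads of the 9 genes were uniquely mapped in all 9 libraries, and 0 other genes of the table overlapped their spans.

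**Figure D5:**
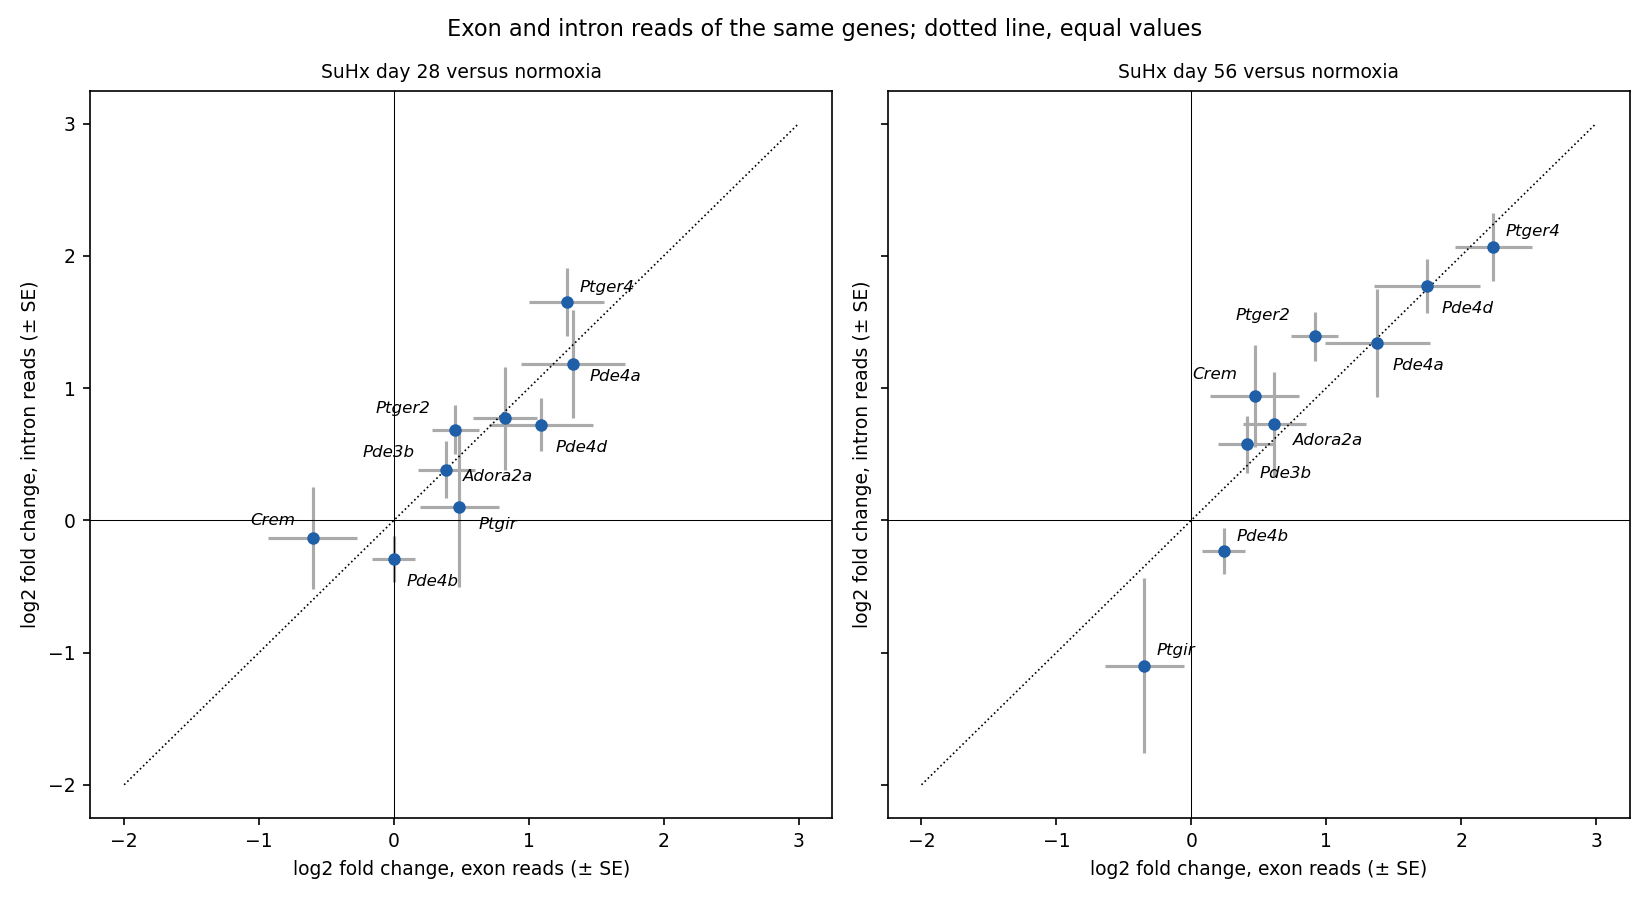
Log2 fold change in intron reads (vertical) against that in exon reads (horizontal) for the 9 genes at day 28 and day 56 over normoxia, with SE bars; the dotted line marks equal values. At day 56 Ptger4, Pde4d and Pde4a lie near the line. Ptger2 (1.39 against 0.92) and Crem (0.94 against 0.47) lie above it, and Pde4b and Ptgir below it. The intron value of Ptgir there rests on few reads, 21 summed over the day 56 libraries and 25 over the normoxia libraries.

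The genes most like each of the 9 over the 9 libraries, by Pearson's r of log2 CPM, are given as a description; the points share library depth and composition. The nearest were Zfp36l2 (0.981) and Rph3al (0.978) for Ptger4, Frmd4b (0.984) and Dusp2 (0.981) for Ptger2, and Fam177a1 (0.984) and Itprip_2 (0.979, as the table spells it) for Pde4d. For Pde4a they were Rab43 (0.996) and Lrp10 (0.988), for Adora2a Gnai2 (0.969) and Sec24d (0.965), and for Ptgir LOC690000 (0.966) and Idh2 (0.961). Pde3b lay nearest to Zfp444 (0.964) and Pgm2l1 (0.954), Pde4b to Cirbp (0.964) and Btn2a2 (0.962), and Crem to Rnf103 (0.967) and Ptrh2 (0.957). Among the 9 genes themselves, Ptger2 and Ptger4 had r = 0.948, Ptger4 and Pde4d 0.929, Pde3b and Pde4d 0.907, and Adora2a and Pde4a 0.896, while Ptgir and Crem ran opposite at -0.784 (n = 9 libraries each).

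The rest of the pathway was followed in 7 lists with 76 tested genes outside the 9. Of the 76, 15 rose and 2 fell at day 56 over normoxia, with a median log2 fold change of 0.31, against -0.04 for all genes. At day 28 over normoxia edgeR called 0 of 76 (0.129% of all genes), with 30 at an unadjusted p under 0.05 (28.8% of all genes) and 23 called by DESeq2 (13%). Between the SuHx days edgeR called 0 of 76 (0.546% of all genes), with 23 at an unadjusted p under 0.05 (18.5%) and 13 called by DESeq2 (8.13%). Upstream, among 9 tested genes of prostanoid synthesis and transport, Ptgs2 (cyclooxygenase 2, which makes the precursor of all prostanoids) rose at day 56 at a low level, 1.96 CPM ± 0.694 at day 56 and 0.108 CPM ± 0.0233 at normoxia (SD, n = 3 each; log2 fold change 4.16, SE 0.897; edgeR adjusted p = 0.0307). Ptgs1, the other cyclooxygenase of this list and named after its values were seen, was not called. It averaged 85 CPM ± 36.5 at day 56 and 90.7 CPM ± 57.3 at normoxia (log2 fold change -0.09, SE 0.54, edgeR adjusted p = 0.922). Of the 9 genes of this list, 2 had a fitted level above normoxia at day 56, and the median log2 fold change was -0.10. The other prostaglandin E2 receptors, EP1 and EP3, named here after their values were seen, were not called: Ptger1 averaged 28.4 CPM ± 2.25 at day 56 and 14.1 CPM ± 7.43 at normoxia (SD, n = 3 each; log2 fold change 1.01, SE 0.306; edgeR adjusted p = 0.0699), and Ptger3 averaged 1.02 CPM ± 0.146 and 0.549 CPM ± 0.21 in the same order (0.93, SE 0.454; edgeR adjusted p = 0.193). Of 12 tested G protein and adenylyl cyclase genes edgeR and DESeq2 each called 0 at day 56 over normoxia, with 0 at an unadjusted p under 0.05.

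Of 15 tested genes for protein kinase A, EPAC and their anchoring proteins, Akap1, which tethers the kinase to mitochondria, rose at day 56 (log2 fold change 1.20, SE 0.208; edgeR adjusted p = 0.0154), and Akap10, another anchor, fell (-0.59, SE 0.150; edgeR adjusted p = 0.0463). Of 10 CREB-family and coactivator genes 1 rose, Sik1, a kinase that restrains CREB coactivators and is itself a cyclic AMP target (1.89, SE 0.387; edgeR adjusted p = 0.0257). Of 7 other tested phosphodiesterases 1 rose, Pde2a, whose breakdown of cyclic AMP is stimulated by cyclic GMP, to 259 CPM ± 29.8 at day 56, against 73.2 CPM ± 33.2 at normoxia (SD, n = 3 each; 1.82, SE 0.289; edgeR adjusted p = 0.012). Pde2a had more CPM at day 56 than any of the 9 genes, though CPM is not scaled for length.

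Of 17 tested cyclic AMP-responsive genes 13 rose at day 56 over normoxia, with a median log2 fold change of 2.54, where 7.12% of all genes were called and 3.42% were called higher. Those with the smallest adjusted p were Per1 (3.70), Fosb (4.95), Vegfa (3.02) and Nr4a2 (5.46), and Sik1 and Ptgs2 belong to this list too. Many of these are immediate-early genes that also respond to other stimuli. The count of 13 fell to 2 without normoxia replicate 2, to 4 without day 56 replicate 1 or 2, to 5 without normoxia replicate 3 or day 56 replicate 3, and to 3 when the model included the intron share. Over all genes, where 886 were called with every library, those fits called 93 without normoxia replicate 2, 304, 85 and 109 without day 56 replicate 1, 2 and 3, 119 without normoxia replicate 3, and 138 with the intron share. The list summed to 365, 484 and 621 CPM at normoxia, 2063, 2466 and 825 CPM at day 28, and 2063, 2242 and 2210 CPM at day 56. Every SuHx library lies above every normoxia library, and day 28 replicate 3, the library with the most globin reads of its group, is the lowest of the SuHx libraries. Among the 17, edgeR called 0 at day 28 over normoxia (0.129% of all genes). There 13 had an unadjusted p under 0.05 (28.8% of all genes) and DESeq2 called 13 (13%). Without normoxia replicate 1 edgeR called 13 (45.2% of all genes). Without day 28 replicate 3 it called 12, in a fit that called 389 genes, against 16 with every library.

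Cell type markers are given beside these results, and their part in them was not tested. Among fixed markers the calls at day 56 over normoxia were Cd79b, a B cell receptor chain (1 of 9 B cell markers; log2 fold change -1.60; edgeR adjusted p = 0.0257), Cd28, a T cell costimulator (1 of 11; 1.20; edgeR adjusted p = 0.0208), Tbx21, a factor of NK and type 1 T cells (1 of 10; 1.31; edgeR adjusted p = 0.0407), and Mmp9, a neutrophil protease (1 of 8; 2.18; edgeR adjusted p = 0.0138). No monocyte, platelet or erythroid marker was called there by edgeR or DESeq2, and 1, a monocyte marker, had an unadjusted p under 0.05. Summed B cell markers were 560 to 935 CPM at day 56 and 1143 to 1877 CPM at normoxia, without overlap. Summed T cell markers were 1629 to 2031 CPM at day 56 and 1559 to 1654 CPM at normoxia, NK markers 835 to 1092 and 520 to 903 CPM, and monocyte markers 1735 to 2730 and 2068 to 4380 CPM, in the same order; these ranges overlap. At day 28 summed monocyte markers were 3201 to 10377 CPM, and all 10 had a fitted level above normoxia; edgeR called none, 7 had an unadjusted p under 0.05 and DESeq2 called 6. Summed platelet markers were 799 to 3500 CPM at normoxia, 608 to 958 CPM at day 28 and 2016 to 4013 CPM at day 56. Of the 10 platelet markers at day 28 over normoxia edgeR called 0, with 10 at an unadjusted p under 0.05 and 9 called by DESeq2. Summed erythroid markers were 3380 to 8952 CPM at normoxia, 76.4 to 2026 CPM at day 28 and 3884 to 4452 CPM at day 56; at day 28 edgeR called 0 of 9, with 9 at an unadjusted p under 0.05 and 7 called by DESeq2. Neutrophil markers summed to 48.9 to 101 CPM at normoxia, 107 to 291 CPM at day 28 and 75.1 to 123 CPM at day 56. Elane was at 0 at day 28, where edgeR called 0 of 8, with 3 at an unadjusted p under 0.05 and 1 called by DESeq2. Of all genes at day 28 over normoxia, edgeR called 0.129%, DESeq2 called 13%, and 28.8% had an unadjusted p under 0.05. At day 56 over normoxia these shares of all genes were 7.12%, 18.4% and 30.9%, in the same order.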

How the data were processed

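Neither RNA selection nor aligner is given in the sources used here. The submitters' processing notes name the build rn6 and the tool FastQC. The authors deposited 1 table with exon reads (raw counts, per the file headers), uniquely mapped exon reads, exon plus intron reads and RPKM for each library. Uniquely mapped reads of replicate 1 are deposited as whole counts on intact lines and formally as estimated counts, since a fraction stands on a broken line; no rounding was needed. RPKM was computed by the authors. Of 22085 lines, 8 were broken (4 genes) and left out, and 81 further value columns, counted over all samples together, were not used. Exon lengths and coordinates are those of the deposited table; coordinates are as the authors gave them.

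Exon reads were tested with edgeR 4.0.16 in R 4.3.3 (robust quasi-likelihood fit, TMM factors, default filterByExpr, 1 mean per group over 9 libraries), adjusted by Benjamini-Hochberg at 0.05 over 12447 genes; the common biological coefficient of variation was 0.280. The script was tested on simulated data. Alternatives included DESeq2 1.42.0, other factors, no filter, unique reads, covariates and each library left out; intron reads (exon plus intron minus exon reads) and a log2 ratio of RPKM were added after seeing the data. No pair of replicates agreed within sampling noise. The genes and lists were chosen with earlier results of these data known. Named are the 9 genes, up to 4 called genes per list with the smallest adjusted p, and the 2 genes most like each of the 9. Reads were counted without molecular identifiers, so copies of a molecule cannot be told from separate molecules. List genes missing from the table, such as Ptgis and Vipr1, were not analysed here. A called list gene is not reported here. Libraries held 22148400 to 39947430 exon reads; Pde4a had the fewest of the 9 genes, 18 to 174 per library.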

Additional observations from a re-analysis of the deposited data

How the results depend on the processing

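Of 540 log2 fold changes of the 9 genes with a test, over 3 comparisons and the alternatives, 490 kept their direction and side of the threshold, 21 passed it, 13 lost it and 16 changed sign; the cause was not tested. The numbers of called genes moved by over 1.5 times in 44 of 57 cases, and DESeq2 called far more than edgeR.

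At day 28 over normoxia, where 16 genes were called, the count was 79 with upper-quartile factors, 8 with RLE factors, 151 with no filter on low counts, 72 with uniquely mapped reads, 2 with the compared groups alone, 1 with the intron share and 1 with the globin share as a covariate, 1659 with DESeq2, and 2 to 5732 with a library left out. Of the 9 genes it was 1 with no filter (Ptger4, edgeR adjusted p = 0.0492), 1 in introns, 4 with DESeq2, and 0 to 6 with a library left out, the 6 being without normoxia replicate 1 (45.2% of all genes called).

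For day 56 over normoxia the 886 calls became 348 with the compared groups alone, 138 with the intron share and 503 with the globin share as a covariate, 2346 with DESeq2, and 85 to 5453 with a library left out. Of the 9 genes 1 (Ptger4) was called with the intron share, and 1 to 5 with a library left out. At day 56 over day 28 the 68 calls became 590 with the compared groups alone, 0 with the globin share (960 genes at an unadjusted p under 0.05), 1062 with DESeq2, and 3 to 1002 with a library left out. There 1 of the 9 (Crem, edgeR adjusted p = 0.0466) was called with the compared groups alone, 1 in introns, 2 with DESeq2, and 0 to 1 with a library left out.

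Same-numbered replicates correlated between -0.154 and 0.172 in their deviations, so no pairing by replicate number was seen in these correlations. Serial numbers in the library names place the day 28 libraries after all others. They place normoxia replicate 1 and day 56 replicate 1 before all others, with a gap in the numbers after them. The part of that order was not tested. With the replicate number as a block, 223, 540 and 186 genes were called at day 28 over normoxia, day 56 over normoxia and day 56 over day 28. The block left the count of called genes among the 9 at 0, 3 and 0.

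The sign changed as follows. Pde4b at day 28 over normoxia was 0.017 with RLE factors, 0.021 with no filter, 0.002 with the compared groups alone, 0.023 with globin genes removed, 0.023 with DESeq2 and -0.06 to 0.102 with a library left out. Pde4b at day 56 over normoxia was -0.235 in introns. At day 56 over day 28 Pde3b was -0.309 with the globin share and -0.108 to 0.256 with a library left out, Pde4a -0.101 to 0.298 and Adora2a -0.386 to 0.009 with a library left out. The 27 log2 ratios of RPKM have no test and hold the shift of all genes, a median of 0.72 at day 28 over normoxia and -0.55 at day 56 over day 28. Before that shift was taken off, Pde4b (0.75) and Crem (0.235) had the other sign at day 28 over normoxia, and Ptger2 (-0.069), Pde3b (-0.488), Pde4a (-0.492) and Pde4b (-0.304) at day 56 over day 28. With it taken off, 26 of the 27 had the sign of the edgeR value, the exception being Pde4b at day 28 over normoxia (0.028).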
